A study of Mus musculus with 9 samples.

Results

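Transcripts of 9 transcription factors that mark regions of the gut were followed in sorted epithelial cells of the mouse colon and small intestine. They were the rows of a table of 78239 genes whose gene name is Gata4, Gata5, Gata6, Onecut2, Onecut3, Pdx1, Osr2, Tbx3 or Pitx1, and all 9 names were found. Gata4, Gata5, Onecut2, Pdx1 and Pitx1 were well represented in every small intestinal library and low or without counts in the colon libraries. Gata6 was present in both organs, Osr2 was abundant in both with overlapping values, and Onecut3 was close to undetected in either. The common name of regional factors therefore fits the levels of most of these genes, but not those of Osr2 and Onecut3.

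Regional identity along the gut is held by combinations of DNA-binding factors that stay on in the adult epithelium and its stem cells. GATA4, GATA5 and GATA6 are zinc finger factors that bind the same core motif. In the mouse GATA4 marks the proximal small intestine and keeps ileal genes off in the jejunum, whereas GATA6 is present along the whole intestine, the colon included. PDX1 is a homeodomain factor of the pancreas and the duodenum, and the Onecut factors carry a cut domain beside a homeodomain and are best known from liver, pancreas and neurons. OSR2, TBX3 and PITX1 are best known from embryonic patterning, of the palate and teeth, of the limb and mammary gland, and of the hindlimb and pituitary.

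The cells came from 8-week-old mice of the Lgr5-2A-eGFP line, whose GFP marks cells that express Lgr5, a receptor of intestinal stem cells. The 3 groups were the GFP-high fraction of the colon, the GFP-negative fraction of the colon and the small intestine, with 3 libraries each, and all 9 libraries come from reporter animals. Per the labels, crypts were loosened by chelation, dissociated with TrypLE and sorted on GFP, at a minimum of 30000 cells per colon fraction and 50000 per small intestinal fraction, and polyadenylated RNA was sequenced. Which GFP fraction the small intestine was sampled from is not in the labels, so organ and fraction cannot be told apart in the comparisons with them. They also do not say whether libraries come from separate animals, and p-values then measure only how far these samples spread.

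The libraries held 86621513 to 106673547 counts, and 20715 to 28206 genes had at least 1 count. Levels are CPM, counts scaled to a common library total, on library sizes scaled by TMM, a factor per library that evens out composition, and 3 counts correspond to 0.0232 to 0.0411 CPM. Lgr5 itself stood at 43.5, 0.958 and 73.0 CPM in the colon GFP-high replicates 1 to 3, at 2.84, 62.1 and 6.28 CPM in the colon GFP-negative replicates 1 to 3 and at 57.9, 119.7 and 208.7 CPM in the small intestine. In the colon replicate 2 pair Lgr5 thus ran against the labels, and both are named here by their labels only, as the libraries labelled colon GFP-high replicate 2 and colon GFP-negative replicate 2. Olfm4, a stem cell gene that the mouse small intestine expresses and the colon nearly lacks, lay between 2.29 and 2.94 CPM in the colon GFP-high group, between 2.21 and 5.15 CPM in the colon GFP-negative group and between 4909 and 8852 CPM in the small intestine. By that gene each library matched its labelled organ. The epithelial markers Epcam, Cdh1, Krt8, Krt18, Krt19 and Vil1 summed to 10290 to 23595 CPM in the colon GFP-high group, 15289 to 24921 CPM in the colon GFP-negative group and 12467 to 25228 CPM in the small intestine.

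The promoters of Gata5 and Pdx1 are shown because they were the windows matched among the 9 genes, and both genes were higher in every small intestinal library than in every colon library. Each is the RefSeq window from 250 bases before to 50 bases after the gene's start on GRCm38.p6, chr2:180334630-180334929 on the minus strand for Gata5 and chr5:147269847-147270146 on the plus strand for Pdx1.
Gata5 promoter: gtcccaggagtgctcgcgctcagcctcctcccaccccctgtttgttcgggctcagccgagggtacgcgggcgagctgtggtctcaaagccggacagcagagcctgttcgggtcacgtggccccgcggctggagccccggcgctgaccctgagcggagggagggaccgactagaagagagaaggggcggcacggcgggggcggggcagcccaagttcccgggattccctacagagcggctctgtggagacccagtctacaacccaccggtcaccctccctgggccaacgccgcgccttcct
Pdx1 promoter: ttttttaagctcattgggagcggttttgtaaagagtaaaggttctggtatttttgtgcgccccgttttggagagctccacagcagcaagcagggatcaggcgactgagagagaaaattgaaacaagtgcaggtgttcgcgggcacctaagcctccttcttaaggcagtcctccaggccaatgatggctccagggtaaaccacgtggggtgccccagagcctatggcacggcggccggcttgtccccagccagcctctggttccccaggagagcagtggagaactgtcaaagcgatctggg
The GATA core GATAA and the core TTTAT of caudal and posterior Hox factors were searched on both strands, and neither window holds either, so no letters are in capitals. Among all 32851 promoter windows of this length 25.4% hold GATAA and 40.0% hold TTTAT. The Gata5 window is richer in G and C, at 69.7% against 55.3% in Pdx1.

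All 9 genes are protein coding in the GENCODE M21 annotation of GRCm38. Gata4 (ENSMUSG00000021944.16) is at chromosome 14, 63198922 to 63271692, on the minus strand, Gata5 (ENSMUSG00000015627.6) at chromosome 2, 180325133 to 180334699, minus, and Gata6 (ENSMUSG00000005836.11) at chromosome 18, 11052064 to 11085635, plus. Onecut2 (ENSMUSG00000045991.20) is at chromosome 18, 64340020 to 64400987, plus, and Onecut3 (ENSMUSG00000045518.9) at chromosome 10, 80494835 to 80517276, plus. Pdx1 (ENSMUSG00000029644.8) is at chromosome 5, 147269959 to 147275848, plus, and Tbx3 (ENSMUSG00000018604.19) at chromosome 5, 119670669 to 119684724, plus. Osr2 (ENSMUSG00000022330.6) is at chromosome 15, 35296098 to 35303305, plus, and Pitx1 (ENSMUSG00000021506.8) at chromosome 13, 55825051 to 55836192, minus.

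A fit of all 9 libraries with edgeR's quasi-likelihood test gave the differences between groups, with p adjusted by Benjamini-Hochberg over the 20610 genes tested and a call at an adjusted p under 0.05. Of the 9 factors 8 were tested, since Onecut3 did not pass the filter on low counts. In colon GFP-high against small intestine 2 of the 8 were called, Gata4 and Onecut2, both lower in the colon, where 5.69% of all genes tested were called and 1.75% were called lower. In colon GFP-negative against small intestine 3 were called lower, Gata4, Gata5 and Onecut2, against 5.66% of all genes called and 1.71% called lower. Both comparisons use the same 3 small intestinal libraries. Every colon GFP-high library lay below every small intestinal library for 7 of the 8 factors, and every colon GFP-negative library for 8 of the 8, a pattern that 13.1% of all genes tested showed in each comparison. Other tools placed the threshold differently. DESeq2 called 5 factors lower in both comparisons, where it called 13.2% and 13.9% of genes and 4.78% and 4.69% lower. With limma-voom 5 were called lower in colon GFP-high and 6 in colon GFP-negative, where 5.14% and 5.09% of genes were called and 1.76% and 1.61% called lower. With edgeR and no filter 4 were called lower in each, against 1.12% and 1.11% of genes. The median log2 fold change of the 8 was -5.04 in colon GFP-high and -3.74 in colon GFP-negative against small intestine, where the medians of all genes tested were 0.02 and -0.0016. Bounds in place of the estimates for groups without counts left both medians of the 8 as they were. Onecut2 and Pitx1 passed the filter on low counts only through the small intestinal libraries, so their direction was set by it. The factors were chosen with earlier results of these data known, so these shares and medians are a description. In such bulk RNA fewer cells of a type and less RNA per cell cannot be told apart in any of these values.

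**Figure D1:**
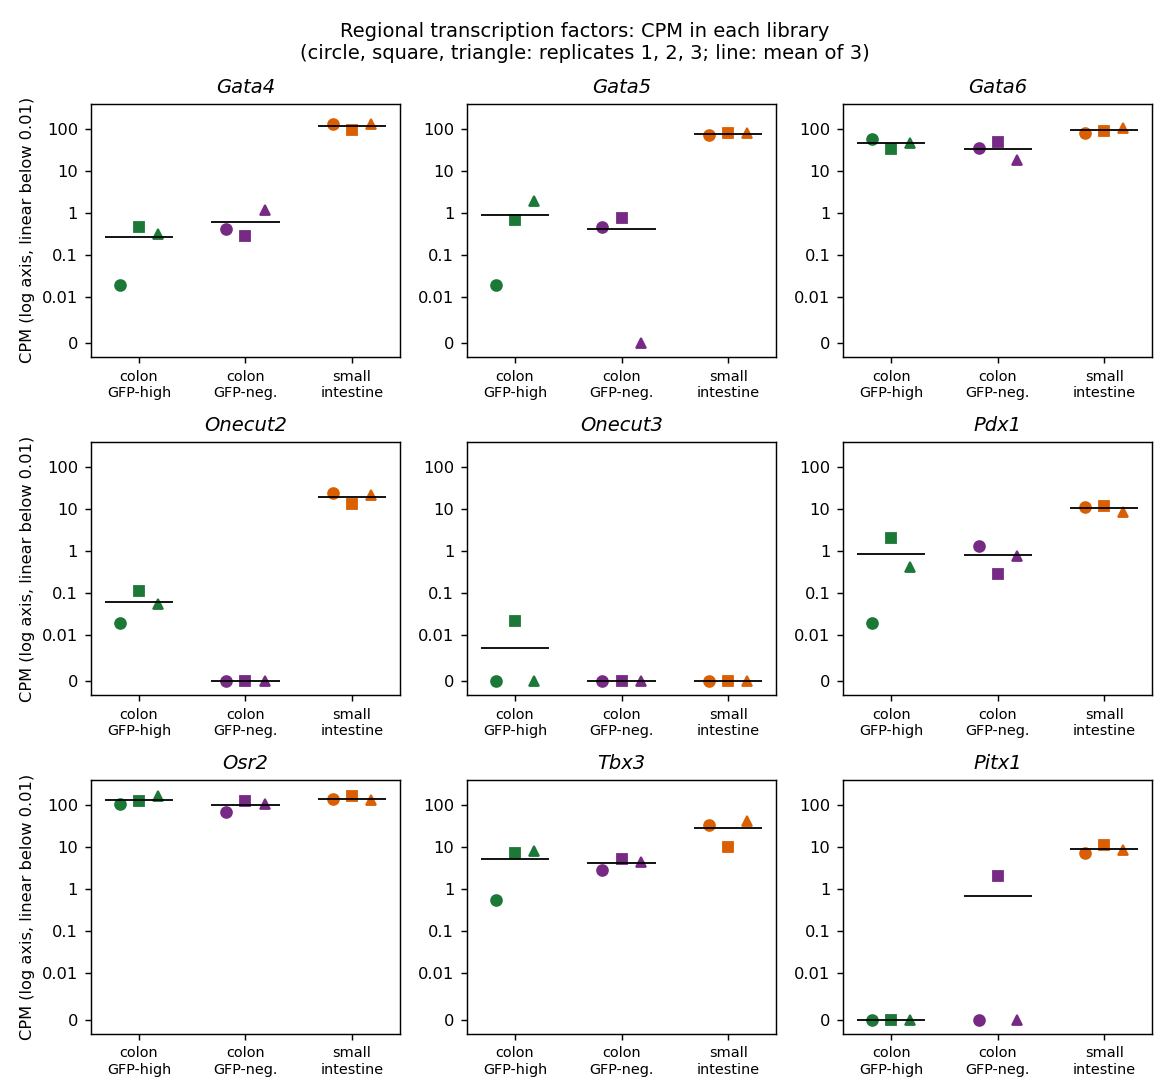
CPM of each of the 9 factors on a log axis, with 1 point per library, colon GFP-high at the left, colon GFP-negative in the middle and small intestine at the right of each panel. Gata4, Gata5, Onecut2 and Pdx1 lie apart between organs, whereas the colon GFP-high and small intestinal points of Osr2 overlap.

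Gata4 had the largest difference in mean CPM between the organs. It stood at 0.0191, 0.457 and 0.316 CPM in the colon GFP-high replicates 1 to 3, at 0.415, 0.279 and 1.16 CPM in the colon GFP-negative group and at 128, 96.1 and 134 CPM in the small intestine. No colon library came near the small intestinal range, and the 0.0191 CPM of colon GFP-high replicate 1 are 2 counts. The means were 0.264 ± 0.224 CPM in the colon GFP-high group and 119 ± 20.3 CPM in the small intestine (SD, n = 3 each), a mean 451-fold higher in the small intestine. Gata4 fell in colon GFP-high against small intestine (log2 fold change -8.82 ± 1.09, SE), at an edgeR adjusted p of 0.00302. In colon GFP-negative it averaged 0.617 ± 0.473 CPM (SD, n = 3), and the log2 fold change against small intestine was -7.58 ± 1.03 with an edgeR adjusted p of 0.00432. Both calls stood without each library in turn and with both colon replicate 2 libraries left out. They ended with a tag shared by some library names as a block, a fit in which 2 libraries drop out, with edgeR adjusted p of 0.137 and 0.243.

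Gata5, the second GATA factor of the small intestine, had a similar split with less even colon values. Its level was 0.0191, 0.686 and 1.93 CPM in the colon GFP-high group, 0.467, 0.768 and 0 CPM in the colon GFP-negative group and 71.2, 78.6 and 80.1 CPM in the small intestine. The colon libraries of each fraction ranged widely and the small intestinal libraries lay within 10 CPM of each other. Against the small intestinal mean of 76.6 ± 4.74 CPM (SD, n = 3), the colon GFP-negative mean of 0.411 ± 0.387 CPM gave a log2 fold change of -7.54 ± 1.69, and Gata5 fell there with an edgeR adjusted p of 0.0355. That call was lost without colon GFP-high replicate 2 (edgeR adjusted p 0.0551), without colon GFP-negative replicate 1 (0.148) or the colon library labelled GFP-negative replicate 2 (0.077), and without small intestine replicate 1 (0.0835), 2 (0.0773) or 3 (0.0993). In colon GFP-high Gata5 averaged 0.877 ± 0.968 CPM, with a log2 fold change of -6.45 ± 1.61 against small intestine and an edgeR adjusted p of 0.0527, which missed the threshold. It passed without colon GFP-negative replicate 3, at an edgeR adjusted p of 0.0193. The antisense transcript Gata5os, which overlaps Gata5, averaged 0.016 CPM in the colon GFP-high group, 0.00864 CPM in the colon GFP-negative group and 1.12 CPM in the small intestine.

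Gata6 was the GATA gene of the colon. It reached 58.0, 33.7 and 45.7 CPM in the colon GFP-high group, 35.0, 48.2 and 18.1 CPM in the colon GFP-negative group and 79.9, 88.6 and 107 CPM in the small intestine. Each colon library lay below each small intestinal library, but the distance was small beside that of Gata4 and Gata5. The mean of 45.8 ± 12.2 CPM in the colon GFP-high group and that of 92.0 ± 14.0 CPM in the small intestine (SD, n = 3 each) gave a log2 fold change of -1.0 ± 0.36, with an edgeR adjusted p of 0.162. Colon GFP-negative averaged 33.8 ± 15.1 CPM, with a log2 fold change of -1.45 ± 0.37 against small intestine and an edgeR adjusted p of 0.0555. That comparison passed the threshold without the colon library labelled GFP-negative replicate 2, at an edgeR adjusted p of 0.0462. Gata6os, transcribed from the opposite strand at the Gata6 locus, averaged 5.87 CPM in the colon GFP-high group, 4.26 CPM in the colon GFP-negative group and 10.4 CPM in the small intestine, and the strand setting of the counting is not given in the sources used here. Antisense reads therefore cannot be told from sense reads for Gata5, Gata6 or the other factors with an antisense neighbour.

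Per length of the gene, as RPKM (CPM per kilobase of gene), the make-up of the GATA transcripts differed between organs. Gata6 held 99.9%, 94.1% and 91.3% of the summed RPKM of Gata4, Gata5 and Gata6 in colon GFP-high replicates 1 to 3. It held 95.6%, 96.0% and 90.3% in the colon GFP-negative group, and 18.4%, 21.9% and 21.9% in the small intestine. In every small intestinal library Gata4 had the largest share, at 49.0%, 39.6% and 45.6%, and Gata5 followed with 32.6%, 38.6% and 32.5%. The summed level of the 3 genes was 8.93, 5.50 and 7.69 RPKM in the colon GFP-high group, 5.63, 7.72 and 3.07 RPKM in the colon GFP-negative group and 66.7, 62.2 and 75.2 RPKM in the small intestine. The lower sum in the colon thus went with a near absence of Gata4 and Gata5, while Gata6 remained.

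**Figure D2:**
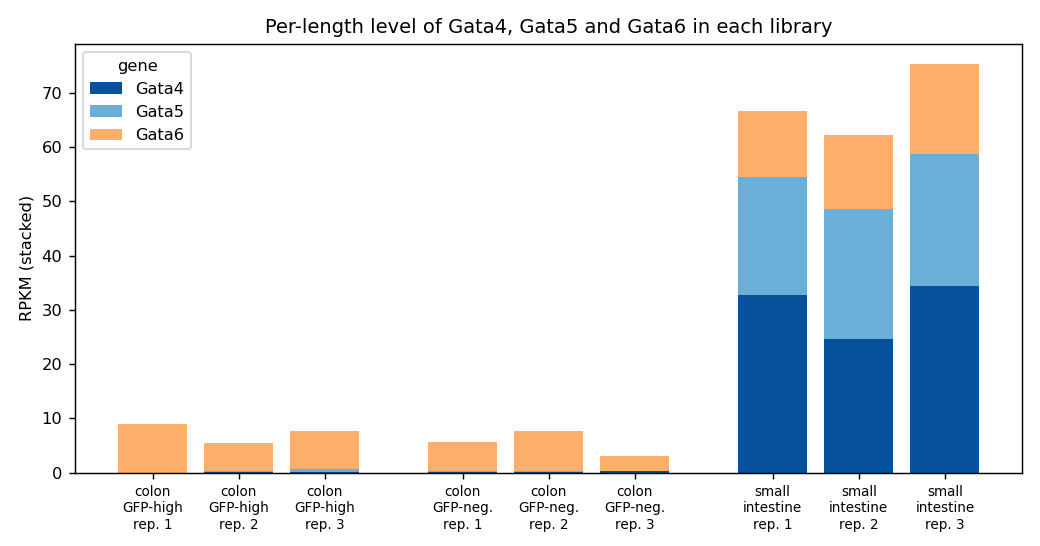
Stacked RPKM of Gata4, Gata5 and Gata6 (vertical axis) in each of the 9 libraries, colon GFP-high at the left, then colon GFP-negative, then small intestine. The colon bars are nearly all Gata6 and end between 3.07 and 8.93 RPKM, whereas the small intestinal bars hold all 3 genes and end between 62.2 and 75.2 RPKM.

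The Onecut genes divided into a factor of the small intestine and one that was barely counted. Onecut2 had 2, 10 and 6 counts in colon GFP-high, which are 0.0191, 0.109 and 0.0558 CPM, no count in any colon GFP-negative library, and 24.3, 13.2 and 21.5 CPM in the small intestine. All 6 colon libraries lay far below the lowest small intestinal one. Its mean was 0.0613 ± 0.0451 CPM in the colon GFP-high group and 19.7 ± 5.76 CPM in the small intestine (SD, n = 3 each), a mean 321-fold higher in the small intestine. Onecut2 fell in colon GFP-high by 8.32 ± 0.77 on the log2 scale against small intestine, at an edgeR adjusted p of 0.00264. Against colon GFP-negative, taken at 3 counts per library, the small intestinal mean was at least 585-fold higher, with an edgeR adjusted p of 0.00141. This and the other bounds against 3 counts would be lower if both reads of a pair were counted. Both calls held without each library in turn, and ended under the block of library name tags, at edgeR adjusted p of 0.101 and 0.124. Onecut3 had 2 counts in the colon library labelled GFP-high replicate 2 and none in the other 8 libraries, so its level was at or under the 3 counts that a value of 0 allows in all of them.

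Pdx1, the duodenal and pancreatic factor, was low in the colon and present in each small intestinal library. It stood at 0.0191, 2.10 and 0.410 CPM in the colon GFP-high group, at 1.35, 0.279 and 0.751 CPM in the colon GFP-negative group and at 11.1, 11.7 and 8.32 CPM in the small intestine. The highest colon value, in the colon library labelled GFP-high replicate 2, was well under the lowest small intestinal one. The means were 0.843 ± 1.11 CPM in the colon GFP-high group, 0.793 ± 0.536 CPM in the colon GFP-negative group and 10.4 ± 1.81 CPM in the small intestine (SD, n = 3 each). The log2 fold change against small intestine was -3.63 ± 1.26 in colon GFP-high and -3.71 ± 1.26 in colon GFP-negative, and neither passed, with edgeR adjusted p of 0.147 and 0.139. Leaving out colon GFP-high replicate 1 brought the second to an edgeR adjusted p of 0.0401.

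Markers of other cell types that use Pdx1 were set beside these values. In the 6 colon libraries Pdx1 followed the summed level of the 10 enteroendocrine markers Chga, Chgb, Neurod1, Neurog3, Pax4, Pax6, Isl1, Rfx6, Nkx2-2 and Scg5, an order noticed after the values were seen. That sum was 62.4, 8130 and 296 CPM in the colon GFP-high replicates 1 to 3 and 2553, 83 and 1834 CPM in the colon GFP-negative group, and all 6 libraries had the same rank by it as by Pdx1. In the small intestine the same sum was 394, 329 and 470 CPM while Pdx1 was higher than in any colon library. The part of enteroendocrine cells in the colon values of Pdx1 was not tested. The 6 pancreatic acinar markers summed to 1650 CPM in small intestine replicate 1 but to 0.547 and 1.67 CPM in replicates 2 and 3, where Cpa1 was at 0 and Pdx1 was still at 11.7 and 8.32 CPM. Without small intestine replicate 1 the log2 fold change of Pdx1 was -3.58 in colon GFP-high and -3.66 in colon GFP-negative against small intestine. Plut, the antisense transcript at Pdx1, averaged 0.672 CPM in the colon GFP-high group, 0.709 CPM in the colon GFP-negative group and 5.26 CPM in the small intestine.

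Pitx1, the hindlimb and pituitary factor, was counted in all small intestinal libraries and in a single colon library. It had no count in colon GFP-high, 0, 2.02 and 0 CPM in the colon GFP-negative group and 7.51, 11.2 and 8.86 CPM in the small intestine. The 2.02 CPM are 203 counts in the colon library labelled GFP-negative replicate 2. The small intestinal mean of 9.20 ± 1.87 CPM (SD, n = 3) was at least 309-fold higher than 3 counts per library in colon GFP-high, with an edgeR adjusted p of 0.0822. Calls appeared without the colon library labelled GFP-negative replicate 2 (edgeR adjusted p 0.00384) and without colon GFP-negative replicate 3 (0.0403). Colon GFP-negative averaged 0.674 ± 1.17 CPM, with a log2 fold change of -3.77 ± 2.05 against small intestine and an edgeR adjusted p of 0.341. Without its replicate 2 library colon GFP-negative had no count of Pitx1 either, and the edgeR adjusted p was 0.00693.

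Tbx3, a T-box factor, was present in both organs and uneven within each. Its level was 0.544, 7.27 and 8.07 CPM in the colon GFP-high group, 2.86, 5.25 and 4.47 CPM in the colon GFP-negative group and 33.8, 10.4 and 43.2 CPM in the small intestine. Small intestine replicate 2 was close to the highest colon library, although the groups did not overlap. The means were 5.30 ± 4.13 CPM in the colon GFP-high group, 4.2 ± 1.22 CPM in the colon GFP-negative group and 29.1 ± 16.9 CPM in the small intestine (SD, n = 3 each). Against small intestine the log2 fold change was -2.47 ± 0.88 in colon GFP-high (edgeR adjusted p 0.157) and -2.79 ± 0.89 in colon GFP-negative (0.117). The second passed without colon GFP-high replicate 1, at an edgeR adjusted p of 0.0277.

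Osr2, a zinc finger factor, was the most abundant of the 9 in all groups and did not separate the organs. It stood at 111, 128 and 167 CPM in the colon GFP-high group, at 68.2, 127 and 111 CPM in the colon GFP-negative group and at 139.6, 165 and 134 CPM in the small intestine. The colon GFP-high and small intestinal ranges overlapped, and colon GFP-negative lay below the small intestine by a narrow margin. Means were 135 ± 28.5 CPM in the colon GFP-high group, 102 ± 30.2 CPM in the colon GFP-negative group and 146 ± 16.5 CPM in the small intestine (SD, n = 3 each). The log2 fold change against small intestine was -0.11 ± 0.27 in colon GFP-high, whose sign turned without colon GFP-high replicate 1 or small intestine replicate 2, and -0.52 ± 0.28 in colon GFP-negative, with edgeR adjusted p of 0.873 and 0.316. OSR2, TBX3 and PITX1 are also factors of mesenchyme, and the 10 stromal and smooth muscle markers summed to 2.56 to 5.49 CPM in the colon GFP-high group, 2.81 to 5.81 CPM in the colon GFP-negative group and 1.21 to 6.32 CPM in the small intestine, far below Osr2 in each library. That sum was above Tbx3 in colon GFP-high replicate 1 (2.56 against 0.544 CPM) and colon GFP-negative replicate 1 (5.81 against 2.86 CPM), and above Pitx1 in every colon library. Pdgfrb, at a mean of 2.99 CPM in the colon GFP-high group, 2.82 CPM in the colon GFP-negative group and 1.66 CPM in the small intestine, and Dcn, at up to 3.73 CPM, made up most of it. Myh11 had at most 0.019 CPM in any library, and Pdgfra was at 0 in colon GFP-high and in the small intestine. The part of stromal cells in these values was not tested.

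**Figure D3:**
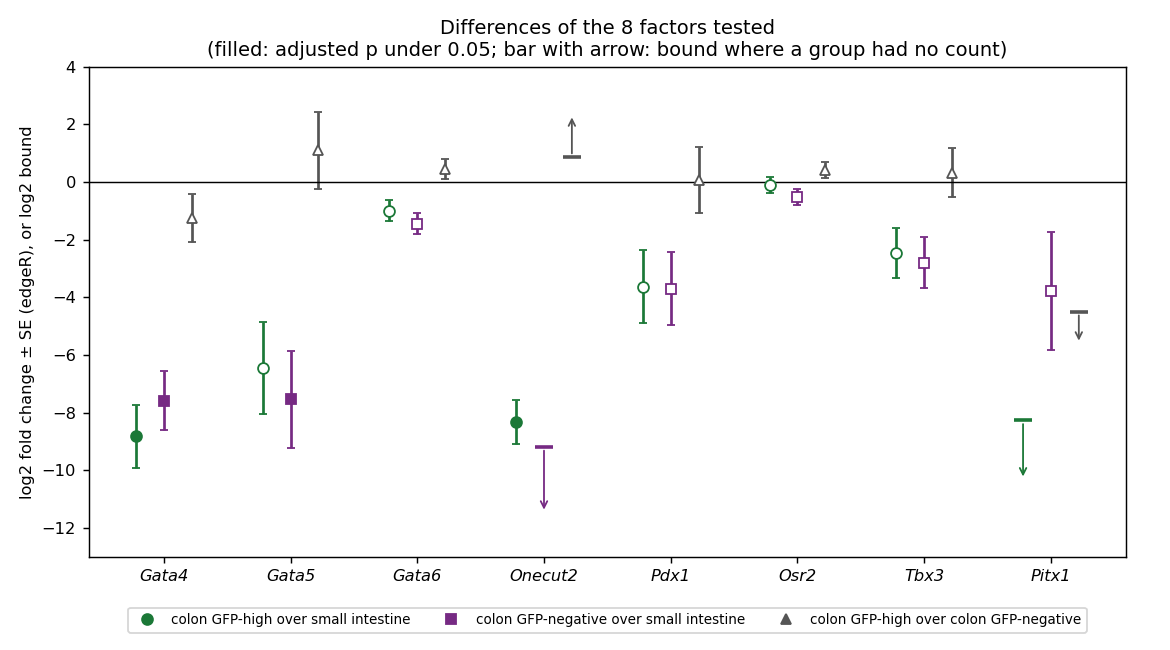
Log2 fold change (vertical axis) of the 8 factors tested in colon GFP-high over small intestine (circles), colon GFP-negative over small intestine (squares) and colon GFP-high over colon GFP-negative (triangles), with bars of 1 SE. Filled symbols are the 4 fitted differences called, of Gata4 in both organ comparisons, Gata5 in colon GFP-negative and Onecut2 in colon GFP-high. Short bars with arrows are bounds against 3 counts per library where a group had no count, and of these the bound of Onecut2 in colon GFP-negative over small intestine belongs to a called difference.

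The order of the factors by level per length differed between the organs. In colon GFP-high it ran Osr2 at 37.4 RPKM, Gata6 at 7.04, Tbx3 at 0.799, Pdx1 at 0.391, Gata5 at 0.268 and Gata4 at 0.0677 RPKM, with Onecut2, Onecut3 and Pitx1 under 0.004 RPKM. In colon GFP-negative it ran Osr2 at 28.1 RPKM, Gata6 at 5.19, Tbx3 at 0.633, Pdx1 at 0.367, Pitx1 at 0.254, Gata4 at 0.158 and Gata5 at 0.126 RPKM, with both Onecut genes at 0. In the small intestine it ran Osr2 at 40.3 RPKM, Gata4 at 30.5, Gata5 at 23.4, Gata6 at 14.1, Pdx1 at 4.81, Tbx3 at 4.39, Pitx1 at 3.46 and Onecut2 at 1.21 RPKM. The median gene tested stood at 1.12 RPKM in the colon GFP-high group, 1.23 RPKM in the colon GFP-negative group and 1.07 RPKM in the small intestine, so that 2 factors exceeded it in each colon fraction and 8 in the small intestine. In colon GFP-high each factor from Tbx3 down to Onecut3 had a library range that overlapped that of the next in order, and so had each from Tbx3 down to Gata5 in colon GFP-negative. In the small intestine the overlapping neighbours were Pdx1, Tbx3 and Pitx1. Osr2 and Gata6 were apart from each other and from all lower factors in every group. Gata4 and Gata5 did not overlap in the small intestine, though the lowest Gata4 value, 24.6 RPKM, was close to the highest Gata5 value, 24.4 RPKM.

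Between the colon fractions no factor was called by edgeR, where 0.0% of all genes tested were called, and 2 of the 8 had an unadjusted p under 0.05, as had 226 of the 20610 genes. These were Onecut2 and Pitx1, of opposite sign, which passed the filter on low counts only through the small intestinal libraries. Onecut2 had at most 10 counts in a colon library, and Pitx1 had counts in 1 colon library alone. The log2 fold change in colon GFP-high over colon GFP-negative was -1.24 ± 0.83 for Gata4, 1.09 ± 1.33 for Gata5, 0.45 ± 0.36 for Gata6, 0.08 ± 1.14 for Pdx1, 0.41 ± 0.28 for Osr2 and 0.33 ± 0.83 for Tbx3. Gata5 and Tbx3 turned sign without colon GFP-high replicate 3, and Pdx1 without either colon replicate 2 library. The colon fractions overlapped in all 8 factors tested but Onecut2, which had counts in every colon GFP-high library and in no colon GFP-negative library, a one-way separation that 2.81% of genes showed. The mean of Onecut2 in colon GFP-high was at least 1.82-fold higher than 3 counts per library in colon GFP-negative, with an unadjusted p of 0.00147 and an edgeR adjusted p of 1. DESeq2 called 1 gene of 20610 (0.00485%) between the fractions, which was Pitx1, lower in colon GFP-high at an adjusted p of 3.24e-05 and counted in the colon in 1 library alone. The 3 colon libraries with the most Gata6, colon GFP-high replicates 1 and 3 and the colon library labelled GFP-negative replicate 2, were also the 3 with the most Lgr5, which was noticed after the values were seen.

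**Figure D4:**
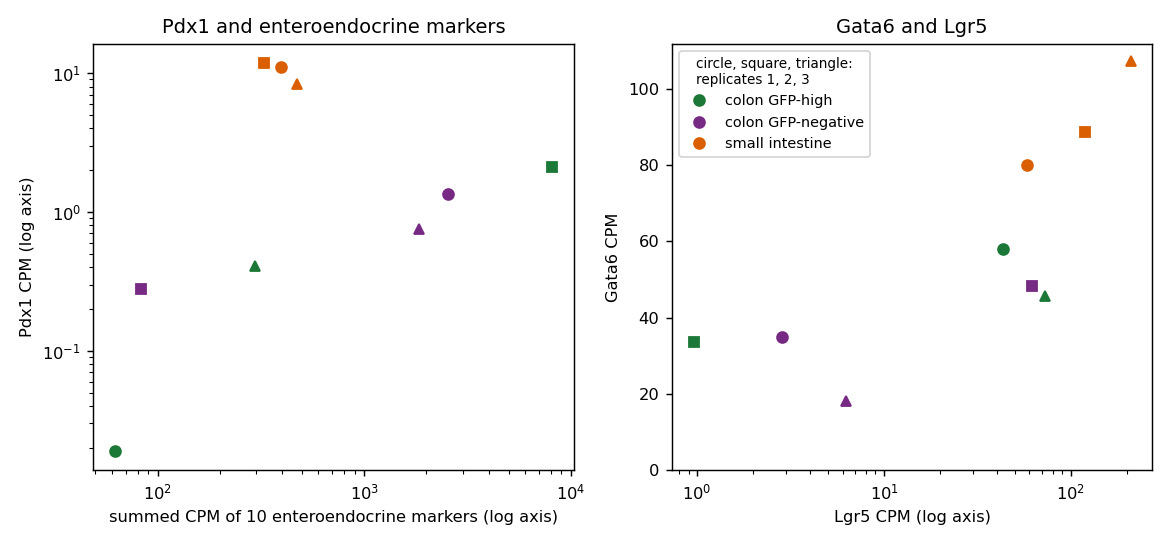
Pdx1 against the summed enteroendocrine markers and Gata6 against Lgr5, all in CPM, with 1 point for each of the 9 libraries. All axes are log axes but that of Gata6, which is linear. The 6 colon libraries have the same order by Pdx1 as by the enteroendocrine sum. Among these 6 the 3 highest in Gata6 are the 3 highest in Lgr5. The small intestinal libraries lie above all colon libraries in Pdx1 and in Gata6.

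The small intestinal libraries differed far more in the lists of gut segment and colon absorptive genes than in these factors. The 12 duodenal and jejunal genes summed to 35669, 584 and 8050 CPM in replicates 1 to 3, a 61.1-fold range, and the 8 ileal genes to 1475, 80.7 and 245 CPM, an 18.3-fold range. Apoa1, the main protein of high-density lipoprotein, stood at 14767, 117 and 3727 CPM, and Lct, the lactase of enterocytes, at 222, 1.76 and 111 CPM. The 8 colon absorptive genes summed to 964, 66.1 and 142 CPM, a 14.6-fold range in the same order of replicates as both segment sums. The 9 factors summed to 495, 475 and 537 CPM, a 1.13-fold range. Both segment sums were lowest in replicate 2. Of the factors Tbx3, Onecut2 and Gata4 were lowest there, with a 4.16-fold range for Tbx3 and a 1.84-fold range for Onecut2, whereas Gata5, Gata6 and Pitx1 were lowest in replicate 1 and Pdx1 and Osr2 in replicate 3. Replicate 1 was also the library with the acinar markers, of which Cela2a was at 459 CPM and Prss2 at 447 CPM. The parts of the segment sampled and of enterocyte content in these sums and in the comparisons with the colon were not tested. Without small intestine replicate 1 Gata4 and Onecut2 were still called in both comparisons, and Gata5 in neither.

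**Figure D5:**
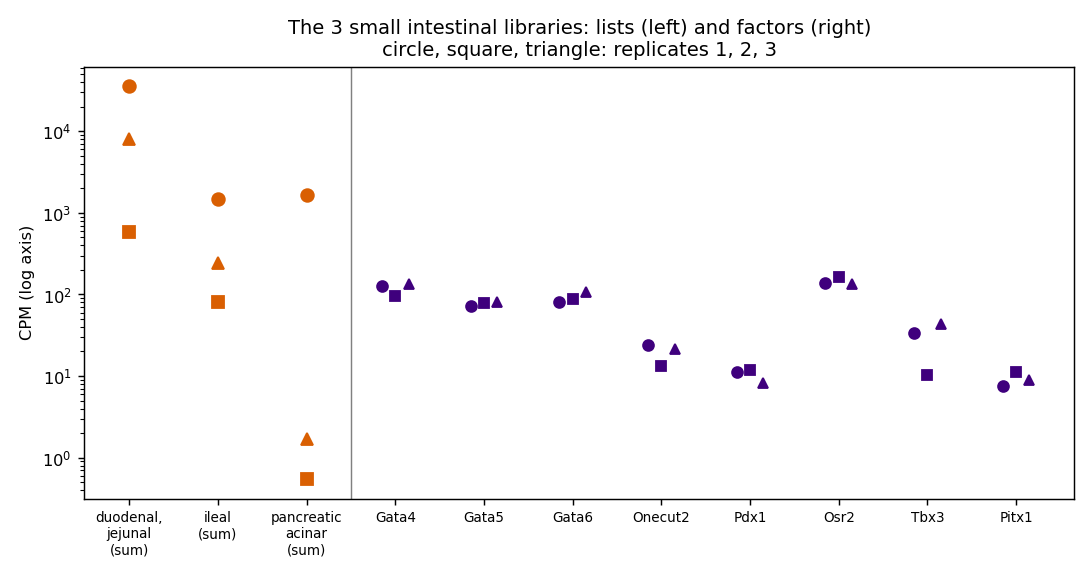
CPM (log axis) in small intestine replicates 1, 2 and 3. At the left are the sums of the duodenal and jejunal genes, of the ileal genes and of the pancreatic acinar markers. At the right is each factor but Onecut3 on its own. The duodenal and jejunal sum spans 584 to 35669 CPM, whereas the widest range of a factor is 4.16-fold, that of Tbx3.

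Other genes of the same families and pathways were counted by lists. Of 18 paralogs of the factors 6 passed the filter on low counts, and none was called in either organ comparison by edgeR (5.69% and 5.66% of all genes), although 1 was called in each by DESeq2. Tbx21 and Gata3, factors of T cells, were highest in colon GFP-negative, at up to 10.7 and 7.75 CPM, in a group whose 7 immune markers summed to 3.40 to 910 CPM, against 1.91 to 186 CPM in the colon GFP-high group and 12.3 to 31.3 CPM in the small intestine. Their part in it was not tested. Onecut1 had no count in any library.

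Among 11 cofactors of the GATA and TALE homeodomain kind 9 were tested, and in each organ comparison 1 was called lower and 1 higher. Zfpm1, or FOG1, a zinc finger partner of GATA factors, stood at 5.27, 1.65 and 1.01 CPM in the colon GFP-high group, at 1.11, 2.34 and 2.98 CPM in the colon GFP-negative group and at 30.5, 36.3 and 40.8 CPM in the small intestine. All colon values were under all small intestinal ones. Zfpm1 fell in colon GFP-high against small intestine by 3.75 on the log2 scale (edgeR adjusted p 0.0138), a call lost without the colon library labelled GFP-high replicate 2, and in colon GFP-negative by 4.06 (0.0102). Meis3, a TALE homeodomain factor, averaged 19.0 CPM in the colon GFP-high group, 15.4 CPM in the colon GFP-negative group and 6.94 CPM in the small intestine. It rose by a log2 fold change of 1.45 in colon GFP-high (edgeR adjusted p 0.00996) and of 1.15 in colon GFP-negative (0.0245), the second of which held in 3 of the 9 fits that left out a library. Pknox1, another TALE homeodomain factor, averaged 16 CPM in the colon GFP-high group, 16 CPM in the colon GFP-negative group and 22.5 CPM in the small intestine, and was not called.

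Of 15 other transcription factors of the gut endoderm 13 were tested, and in each organ comparison 2 were called higher and 2 lower. The pioneer factor Foxa1 rose by 1.52 and 1.5 on the log2 scale in colon GFP-high and colon GFP-negative, with edgeR adjusted p of 0.0337 and 0.0339. The enterocyte nuclear receptors Hnf4g and Hnf4a fell by 2.80 and 1.27 in colon GFP-high (0.0282 and 0.0213, edgeR) and by 2.58 and 1.17 in colon GFP-negative (0.0362 and 0.0285). Each of the 6 calls of Foxa1, Hnf4g and Hnf4a was lost in 5 to 8 of the 9 fits that left out a library. Cdx1 and Klf5, the most abundant of the list, averaged 1359 and 844 CPM in the colon GFP-high group, 1199 and 988 CPM in the colon GFP-negative group and 823 and 845 CPM in the small intestine, and neither was called.

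Genes that depend on gut segment were counted in the same way. Of the 12 duodenal and jejunal genes 8 were called lower in colon GFP-high against small intestine and 7 in colon GFP-negative, with none higher. In colon GFP-high these were led by the apolipoprotein Apoa4 (log2 fold change -10.69, edgeR adjusted p 0.0233), Lct (-9.95, 0.0404), Apoa1 (-9.43, 0.0395) and the hormone Gip (-9.35, 0.0369). In colon GFP-negative Gip, Fabp1, Apoa4 and Npc1l1 led, with log2 fold changes of -13.14, -8.29, -8.06 and -7.54 and edgeR adjusted p of 0.0188, 0.015, 0.0456 and 0.0311. These counts ranged between 0 and 8 in both comparisons when each library was left out, with 1 called in colon GFP-high and 2 in colon GFP-negative without small intestine replicate 1, and none in either without both colon replicate 2 libraries. Among the 8 ileal genes 7 were tested and 1 was called lower in each comparison, Amn, the partner of cubilin in vitamin uptake, with log2 fold changes of -2.76 (edgeR adjusted p 0.0107) and -3.11 (0.00664). Of 8 colon absorptive genes 3 were called higher in each comparison and none lower, and 2 to 4 were when each library was left out. They were the carbonic anhydrase Car1 (10.35 and 10.78 on the log2 scale), the sodium channel subunit Scnn1b (8.06 and 8.78) and Hsd11b2, which inactivates corticosterone (4.27 and 5.05), with edgeR adjusted p between 0.00461 and 0.0146. Gip passed the filter on low counts only through the small intestinal libraries and Scnn1b only through the colon libraries, so their directions were set by it. None of these lists had a gene called between the colon fractions.

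Markers of other tissues were summed in the same libraries. The 6 gastric and Brunner gland markers summed to 1.44 to 1.60 CPM in the colon GFP-high group, 0.236 to 2.06 CPM in the colon GFP-negative group and 79.2 to 146 CPM in the small intestine, where nearly all of it was Gkn3 and Muc5ac had no count in any library. Gkn3 averaged 0.0871 CPM in the colon GFP-high group, 0.0199 CPM in the colon GFP-negative group and 112 CPM in the small intestine, and was called lower in both colon fractions (edgeR adjusted p 0.00138 and 0.000992). Gkn3 passed the filter on low counts only through the small intestinal libraries, so its direction was set by it. In the same order of groups Tff2 averaged 1.16, 0.618 and 1.37 CPM and Muc6 0.267, 0.271 and 0.0176 CPM. Gkn1 and Gkn2 averaged 0.0568 and 0.0821 CPM in the small intestine and had no count in the colon. The part of gastric or Brunner gland cells in the sum was not tested. The 5 endothelial markers reached at most 10.3 CPM in the colon GFP-high group, 7.84 CPM in the colon GFP-negative group and 19.1 CPM in the small intestine, with Cdh5 at 0 throughout. On average most of that sum was Esam, an adhesion molecule of endothelium, with means of 6.68 CPM in the colon GFP-high group, 2.89 CPM in the colon GFP-negative group and 14.0 CPM in the small intestine. Esam fell in colon GFP-negative against small intestine by 2.28 on the log2 scale (edgeR adjusted p 0.0451), a call that held in 2 of the 9 fits that left out a library, and in colon GFP-high the edgeR adjusted p was 0.294. The 5 markers of enteric neurons and glia did not exceed 0.914 CPM in the colon GFP-high group, 1.43 CPM in the colon GFP-negative group or 1.43 CPM in the small intestine. The 6 stem cell markers summed to 65.3 to 646 CPM in the colon GFP-high group. Their sum was 68.5 to 668 CPM in the colon GFP-negative group and 5418 to 10136 CPM in the small intestine. Olfm4 led it in the small intestine only, at a mean of 7052 CPM. Smoc2 had the highest mean of the list in both colon groups, with means of 256 CPM (GFP-high), 168 CPM (GFP-negative) and 611 CPM (small intestine). All 6 had negative log2 fold changes in both organ comparisons, but edgeR called Olfm4 alone. Without both colon replicate 2 libraries it called all 6 lower in colon GFP-negative.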

How the data were processed

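RNA-seq was run on 9 libraries in 3 groups of 3, and the deposited table gives, per the file headers, unnormalised read counts, gene lengths, library totals and the TMM factor, a ratio per library between 0.805 and 1.21. The submitters' processing notes name STAR, Subread, featureCounts, edgeR and build mm10, without versions. The deposited log2 CPM and related log2 values were not used here. The annotation release and strand setting of the counting are not stated there, and 51498 gene IDs were found in GENCODE M21, which gave coordinates. In each library 63.8% to 67.6% of genes with 10 to under 200 counts had an even count, so 2 counts may be 1 read pair, which was not tested.

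CPM used the deposited totals and TMM factors, and RPKM divided these by the deposited length. Counts were tested in R 4.3.3 with edgeR 4.0.16 (filterByExpr by group, TMM, glmQLFit and glmQLFTest on all 9 libraries, two-sided, Benjamini-Hochberg), with 57629 genes not tested. The standard error is the log2 fold change over the root of its F statistic. DESeq2 1.42.0 and limma 3.58.1 (voom) were alternatives, beside other scalings, filters, blocks and left-out libraries. Floors of 3 counts cover counting error only, and would be too low if both reads of a pair were counted. The common biological coefficient of variation, a measure of spread between libraries, was 0.726. How far depth limited the factors with few counts was not tested. The chi-square per gene between replicates was 457 to 1128, so no library was counted as a copy. On simulated counts, 4-fold changes were called in 35% and 16-fold changes in 87% of the genes given them for colon GFP-high against small intestine (19626 genes), 37% and 88% in the colon GFP-negative group against small intestine (19625) and 37% and 87% between the colon fractions (19626). These changes were all increases, given to genes above a minimum mean CPM that Pdx1 and Pitx1 did not reach.

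The factors and gene lists were chosen with earlier results of these data known. All 9 factors are named, and from a list the 2 genes of highest mean CPM and the called genes, up to 4 by size of log2 fold change, some of which are not reported here. RefSeq promoters on chromosome 18, where Gata6 and Onecut2 lie, were left out. Among the other promoters 2 of the 9 genes matched.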

Additional observations from a re-analysis of the deposited data

How the results depend on the processing

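What was called varied with the tool, the block and the libraries used. Genes called numbered 1173 in colon GFP-high against small intestine and 1166 in colon GFP-negative against small intestine. DESeq2 called 2714 and 2860, a replicate block 508 and 532 and the library name tag block 18 and 0, and leaving out each library gave 564 to 1375 and 531 to 1078, lowest without colon GFP-high replicate 2 (as labelled) and without colon GFP-negative replicate 1. Without both colon replicate 2 libraries 508 were called in colon GFP-high. In the tag block colon GFP-negative replicate 3 and small intestine replicate 1 share their tag with no other library and drop out. Of the factors 2 were called in colon GFP-high and 3 in colon GFP-negative against small intestine. DESeq2 called 5 and 5, limma-voom 5 and 6, a fit of only the 2 groups 4 and 5, the tag block 0 and 0, and no filter 4 in colon GFP-high. The fit of only the 2 groups called 1093 of 19010 and 969 of 18807 genes, 352 and 280 of them lower. Leaving out each library gave 2 to 4 factors called (4 without colon GFP-negative replicate 3) and 2 to 5 (5 without colon GFP-high replicate 1). In those comparisons these 2 fits called 1375 of 21932 and 1078 of 22283 genes, 452 and 289 of them lower. Between the colon fractions DESeq2 called 1 gene, Pitx1, and so 1 factor, in place of 0. The replicate block left 2 and 2 factors called, and Gata5 in colon GFP-negative was lost at an edgeR adjusted p of 0.129. Libraries of the same number correlated at -0.604 to 0.303 in their deviations, 2 of 9 pairs above 0.1, against -0.313 to 0.453 for other pairs. These values cannot decide whether the numbers pair the samples, since the deviations of the 3 libraries of a group cancel out. The colon libraries of replicate 1 share a name tag, as do those of replicate 2. DESeq2 gave no adjusted p for Pdx1.

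Signs turned for 4 factors. Leaving out each library, Osr2 in colon GFP-high over small intestine ranged between -0.26 and 0.043, and was 0.0018 without small intestine replicate 2. In colon GFP-high over colon GFP-negative Gata5 was -0.62 with the tag block and -0.25 to 1.93 leaving out each library, Tbx3 -0.39 with limma-voom, -0.72 with the tag block and -0.13 to 0.86 leaving out each, and Pdx1 -1.28 with limma-voom, -0.52 with the replicate block, -0.68 with the tag block, -2.29 without both colon replicate 2 libraries and -1.88 to 0.70 leaving out each, with -0.32 without the one labelled GFP-negative. Of 425 alternative values of the factors 370 kept their direction and side of the threshold, 13 lost a call, 29 gained one and 13 turned sign, and the causes were not tested.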

Other observations

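The genes whose log2 CPM followed each factor most closely over the 9 libraries were looked up among 13539 genes with a mean of at least 1 CPM, as a description in which the organ difference and the library scaling are shared by all points. For Gata4 they were Fam234b, Exoc3 and Angptl4 (Pearson r 0.992, 0.987 and 0.983), for Gata5 Dnajb3, Plekhb1 and Sfrp5 (0.990, 0.989 and 0.989) and for Gata6 Qars1, Rtn4rl1 and Papln (0.990, 0.987 and 0.985). For Onecut2 they were Gimd1, ENSMUSG00000123216 and Gkn3 (0.991, 0.990 and 0.989), for Pdx1 Dbnl, Slc1a1 and Car9 (0.979, 0.971 and 0.963) and for Tbx3 Mov10, Dnah2 and Slc22a4 (0.989, 0.975 and 0.971). For Pitx1 they were Krt31, Cps1 and Lrrc41 (0.973, 0.963 and 0.960), and for Osr2, which had no close match, Fhl2, Cand2 and Zfp503 (0.890, 0.872 and 0.866). Among the factors Gata4 was closest to Onecut2 (0.932) and Pdx1 (0.917), while Gata6 had 0.629 with Gata4 and 0.822 with Gata5.

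Colon GFP-high replicate 1 held exactly 2 counts of each of Gata4, Gata5, Onecut2 and Pdx1, and also had the fewest genes with a count, 20715. The other antisense neighbours had low means: Tbx3os1 0.257 CPM in the colon GFP-high group, 0.0717 CPM in the colon GFP-negative group and 0.339 CPM in the small intestine, and Gm47071 at Pitx1 1.27 CPM in the colon GFP-high group, 0.955 CPM in the colon GFP-negative group and 1.96 CPM in the small intestine. Tbx3os2 averaged 2.18 CPM in the colon GFP-high group, 1.73 CPM in the colon GFP-negative group and 2.62 CPM in the small intestine.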
